A study of Mus musculus with 4 samples.

Results

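The 10 genes described here encode the death-promoting side of the Bcl2 family. They are 7 BH3-only genes (Bcl2l11, Bmf, Bad, Bid, Bik, Bbc3 and Pmaip1) and the 3 multidomain genes Bax, Bak1 and Bok. They were taken by name from a table of 34866 mouse genes, by a rule that did not use their values, and all 10 were found. Earlier results of these data were known when the list was made. Cells were B220+ IgM+ spleen cells of 2 λ-MYC Tom+/ki mice (tumors #1 and #2, both IgM+ Tom+), sorted into Tom+ and Tom- cells, so that there were 4 libraries, 1 of each kind per mouse. Every animal carried λ-MYC+/TG, a human MYC gene under λ light chain regulatory sequences, together with AicdaCre+/ki and R26tdTom+/ki, by which Tomato (Tom) marks cells with past expression of AID, the deaminase of the germinal center. Tom- cells were therefore also MYC transgenic and came from the same mice. Tom reports past and not present AID, each tumor is 1 mouse of an age not given in the sources used here, and the gate does not separate lymphoma cells from other IgM+ B cells.

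Mitochondrial apoptosis is set by contacts within this family. BH3-only proteins carry a short helix, the BH3 domain, that fits into a groove of anti-apoptotic members such as Bcl2, Bcl-xL and Mcl1, and some of them also bind Bax and Bak directly. Freed or activated Bax and Bak then permeabilize the outer mitochondrial membrane and release cytochrome c. In B cells driven by MYC this route is a known barrier to lymphoma, with Bim (the product of Bcl2l11) and Puma (the product of Bbc3) among its best known parts.

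The members share the stretch that codes for the BH3 core, a leucine codon, any 3 codons, a codon for glycine, alanine or serine, and an aspartate codon. This was found in frame once in the longest complete coding sequence of each of 9 members, and 2 times in Pmaip1. It is short, and 34% of the 21504 genes with a complete coding sequence held it, so the pattern alone does not mark the family. The windows below run from 4 codons before to 5 codons after the core and are shown because they carry the contact that gives the BH3-only genes their name. Capitals mark the core, and the sequences are those of the coding strand in GENCODE M21 (GRCm38).
Bcl2l11 (chr2:128147138-128147182, plus strand, exon 3): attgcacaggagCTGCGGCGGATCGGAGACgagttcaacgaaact
Bmf (chr2:118545094-118545138, minus strand, exon 4): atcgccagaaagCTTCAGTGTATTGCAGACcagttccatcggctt
Bad (chr19:6950780-6950824, plus strand, exon 3): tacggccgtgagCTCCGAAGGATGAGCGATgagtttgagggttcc
Bid (chr6:120897283-120897327, minus strand, exon 4): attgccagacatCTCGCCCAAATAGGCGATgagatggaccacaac
Bik (chr15:83543072-83543116, plus strand, exon 3): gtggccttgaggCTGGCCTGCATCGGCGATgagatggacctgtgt
Bbc3 (chr7:16313761-16313805, plus strand, exon 3): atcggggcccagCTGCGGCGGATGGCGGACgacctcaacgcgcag
Bax (chr7:45465991-45466035, minus strand, exon 3): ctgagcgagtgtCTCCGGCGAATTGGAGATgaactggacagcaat
Bak1 (chr17:27022525-27022569, minus strand, exon 4): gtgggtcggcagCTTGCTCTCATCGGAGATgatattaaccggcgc
Bok (chr1:93686645-93689176, plus strand, exons 2 and 3, intron left out): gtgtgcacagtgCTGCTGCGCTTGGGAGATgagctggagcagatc
Between windows of different members, base identity was highest for Bcl2l11 with Bbc3 and for Bik with Bak1, at 62.2% of 45 bases in both pairs. Words of 60 bases, the read length, were searched for in transcripts of genes outside the list. Words shared between members were not counted. No 60-base word of Bcl2l11, Bmf, Bik, Bbc3, Pmaip1 or Bok occurred in a transcript of a gene outside the list on either strand.

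Values are TPM, transcript abundances divided by transcript length and brought to the same sum in each library, so that levels of different genes in 1 library can be compared. That sum is 1000000 TPM. Sequencing depth is unknown, so counting error could not be given as an interval. The labelled cell type was checked on markers. All 8 B cell markers were found in at least 1 library at 1 TPM or more, with Cd79a between 120 and 346 TPM. Of the markers of other cells, Cd3e was at 0.0687 TPM or less and Csf1r at 0.0695 TPM or less in every library. The summed T and NK cell markers (2 of 8 at 1 TPM or more in a library, Ncr1 and Nkg7 at 0 in all) ranged from 0.398 to 8.29 TPM. The summed myeloid markers (5 of 8, Fcgr1 at 0 in all) ranged from 2.64 to 13.3 TPM, and the erythroid ones (2 of 7, with Hba-a1 and Hba-a2 at 0 in all) from 0.804 to 21.5 TPM. The highest single markers of these lists were Hbb-bs (18.8 TPM, tumor #1 Tom-), Cd3d (7.77 TPM, tumor #2 Tom-) and Cd68 (6.41 TPM, tumor #2 Tom+). Pseudogenes took 23.4% to 31.3% of the TPM and mitochondrial genes 6.61% to 15.6%.

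Bax, the pore-forming effector that moves from the cytosol to mitochondria, was the most abundant member in every library. It was at 166 (Tom-) and 152 (Tom+) TPM for tumor #1 against 99.4 and 162 TPM for tumor #2. The Tom- library of tumor #2 lay below all others, and Tom- and Tom+ libraries overlapped. Among all genes with a TPM above 0, Bax stood between the 93.4th and the 95.7th percentile of a library. It made up 44.0% to 62.9% of the summed TPM of the 10 members.

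Bak1, which encodes the effector that resides at the mitochondrial membrane, was at 46.6 (Tom-) and 50.2 (Tom+) TPM for tumor #1 against 41.1 and 24.3 TPM for tumor #2. Here the Tom+ library of tumor #2 was the low one. Bax exceeded Bak1 by 3.57-fold and 3.04-fold in tumor #1 (Tom- and Tom+) and by 2.42-fold and 6.67-fold in tumor #2. Bok, a relative of Bax and Bak that can act without them, was listed at 0 in all 4 libraries.

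Bid, which caspase-8 cleaves to link death receptors to mitochondria, was the most abundant BH3-only gene, at 23.6 and 27.8 TPM for tumor #1 against 32.6 and 36.1 TPM for tumor #2 (Tom- first, as in the following values). It gave 38.1% to 54.1% of the summed BH3-only TPM. Bcl2l11, whose product Bim binds all pro-survival members, was at 9.21 and 8.40 TPM for tumor #1 against 14.6 and 12.7 TPM for tumor #2. Both genes were higher in both libraries of tumor #2 than in either library of tumor #1.

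Bmf, whose product can be held at the actin cytoskeleton, varied most. It was at 7.09 and 3.11 TPM for tumor #1 against 24.9 and 21.2 TPM for tumor #2, an 8.02-fold range over the 4 libraries, where that of the other expressed members was between 1.53-fold and 2.78-fold. In tumor #1 Bcl2l11 exceeded Bmf by 1.30-fold and 2.70-fold, and in tumor #2 Bmf was the higher of the pair, with a Bcl2l11 to Bmf ratio of 0.585 and 0.599.

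Bad, a sensitizer that growth factor kinases such as Akt hold inactive by phosphorylation, was at 5.77 and 5.82 TPM for tumor #1 against 7.81 and 5.06 TPM for tumor #2. Pmaip1, which encodes Noxa, a partner of Mcl1, was at 5.22 and 5.38 TPM for tumor #1 against 4.26 and 3.18 TPM for tumor #2. Tom- and Tom+ libraries overlapped for both.

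Bbc3, a classical p53 target, was close to the limit for testing, at 0.482 and 0.870 TPM for tumor #1 against 1.34 and 1.06 TPM for tumor #2. Bik, a BH3-only gene of the endoplasmic reticulum, was listed at 0 in all 4 libraries, like Bok.

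**Figure D1:**
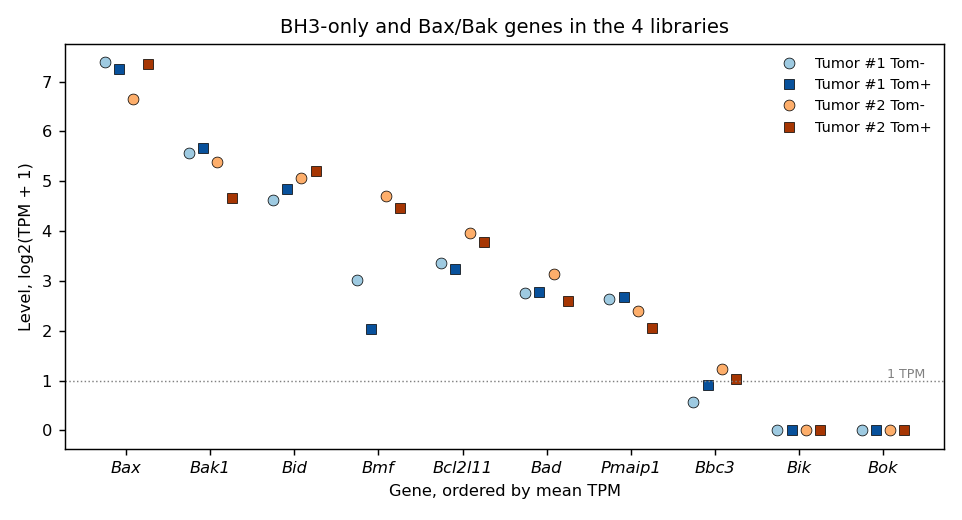
Level of each member as log2(TPM + 1) on the vertical axis, with the genes ordered by mean TPM and 1 point per library (circles Tom-, squares Tom+, blue shades tumor #1, orange and brown tumor #2, dotted line 1 TPM). Bax is at the top in all 4 libraries, Bmf separates the tumors most (3.11 and 7.09 against 21.2 and 24.9 TPM), and Bik and Bok lie at 0.

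By the mean of the 4 libraries the order was Bax, Bak1, Bid, Bmf, Bcl2l11, Bad, Pmaip1, Bbc3, with Bik and Bok at 0. The ranges of neighbors in this order overlapped for Bak1 and Bid, Bid and Bmf, Bmf and Bcl2l11, and Bad and Pmaip1, and were separate for Bax and Bak1, Bcl2l11 and Bad, and Pmaip1 and Bbc3. Bax was the highest and Bbc3 the lowest of the 8 expressed members in each library.

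To ask whether cells with a history of AID differ in this machinery, each Tom+ library was set against the Tom- library of its own mouse. Differences are of log2(TPM + 1), which understates changes of low genes. They were fitted with limma with the tumor as a block over the 11339 genes that reached 1 TPM in 2 or more libraries. Of the 10 members 8 passed this limit. Bik and Bok did not, and Bbc3 passed only through tumor #2. The same mouse gave both libraries of a tumor and nothing further replicates them. Errors combine the spread between 2 pairs (1 residual degree of freedom) with limma's variance trend over all genes (2.21 prior degrees of freedom). They are therefore not the spread of the 2 pairs alone. The smallest two-sided p-value of an exact permutation test on 2 pairs is 0.5.

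No change between Tom+ and Tom- cells was detected in any member. With limma 0 of the 8 had an adjusted p-value below 0.05, where 0% of all tested genes did, and 0 had an unadjusted p-value below 0.05, where 4.67% of all genes did. Tom+ was higher in both tumors for 1 member, Bid (21.6% of all genes), and lower in both for 2, Bcl2l11 and Bmf (29.5% of all genes). For the other 5 the tumors went in opposite directions, as for 47.3% of all genes, and Bad joined those lower in both with trimmed-mean scaling. In 0 of the 8 did both Tom+ libraries lie on one side of both Tom- libraries, against 16.3% of all genes. In bulk samples, fewer cells with a transcript and less of it per cell cannot be told apart.

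The largest difference was that of Bmf, with a log2 difference of -0.60 (SE 0.28, 95% interval -1.45 to 0.24, unadjusted p = 0.112, adjusted p = 0.936 from limma). Its size was at the 89.7th percentile of all tested genes. It came mainly from tumor #1 (-0.98, TPM ratio 0.439), and in tumor #2 it was -0.22 (TPM ratio 0.851). Bcl2l11 had similar small differences in both tumors, -0.12 and -0.19, and a fitted value of -0.15 (SE 0.18, 95% interval -0.70 to 0.40). Bid had 0.23 and 0.14 and a fitted value of 0.19 (SE 0.15, 95% interval -0.28 to 0.65).

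In tumor #2 the differences of the 2 effectors had opposite signs. There Bax was 1.63-fold higher in Tom+ than in Tom- cells (log2 difference 0.70, at the 83.7th percentile of the sizes of all genes in that tumor), and Bak1 was lower, with a TPM ratio of 0.592 (-0.73, at the 84.8th percentile). In tumor #1 the same differences were -0.13 for Bax and 0.10 for Bak1. The fitted values were 0.29 for Bax (SE 0.26, 95% interval -0.51 to 1.09) and -0.31 for Bak1 (SE 0.27, 95% interval -1.15 to 0.52). Both have an adjusted p-value of 0.936 from limma.

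Other genes also differed between the Tom- and Tom+ libraries of tumor #2. The Tom+ library of tumor #2 held 209 TPM of the plasma cell gene Jchain, against 0.330 to 1.72 TPM in the other libraries, and the highest values of Prdm1 (0.570 against 0.0180 to 0.108 TPM), Irf4 (29.4 against 14.6 to 19.5 TPM) and Xbp1 (21.2 against 10.6 to 18.7 TPM). Mzb1 was at its lowest there (80.6 against 94.8 to 145 TPM), and Sdc1 was at 0.428 TPM, against 0 to 1.95 TPM. The 6 plasma cell markers summed to 341 TPM in this library, most of it Jchain. In the other libraries they summed to 129 to 179 TPM, most of it Mzb1. Of the 6 markers 5 reached 1 TPM in a library. The part of plasma cells in the Bax and Bak1 values was not tested. Bak1 also lies over its whole length within Ggnbp1 on the opposite strand, and 15.3% of its 60-base words occur there in antisense. Whether the reads were counted by strand is not given in the sources used here. Ggnbp1 was at 2.70 and 6.97 TPM for tumor #1 against 29.5 and 29.2 TPM for tumor #2. Its part in the Bak1 values was not tested.

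For the low BH3-only genes the fitted differences were -0.26 for Bad (SE 0.25, 95% interval -1.03 to 0.50), -0.15 for Pmaip1 (SE 0.23, 95% interval -0.85 to 0.56) and 0.075 for Bbc3 (SE 0.28, 95% interval -0.79 to 0.94). Bad was at 0.011 and -0.54 in tumors #1 and #2, Pmaip1 at 0.036 and -0.33, and Bbc3 at 0.34 and -0.19. All 3 intervals include 0. As with Bak1, 16.6% of the words of Bad overlap Gpr137 and 16.1% of those of Bid overlap Bcl2l13 in antisense, both genes at lower TPM than the member in every library. In Bax 7.83% of the words are shared in sense with Gm45808, which was at 0.0474 TPM or less.

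**Figure D2:**
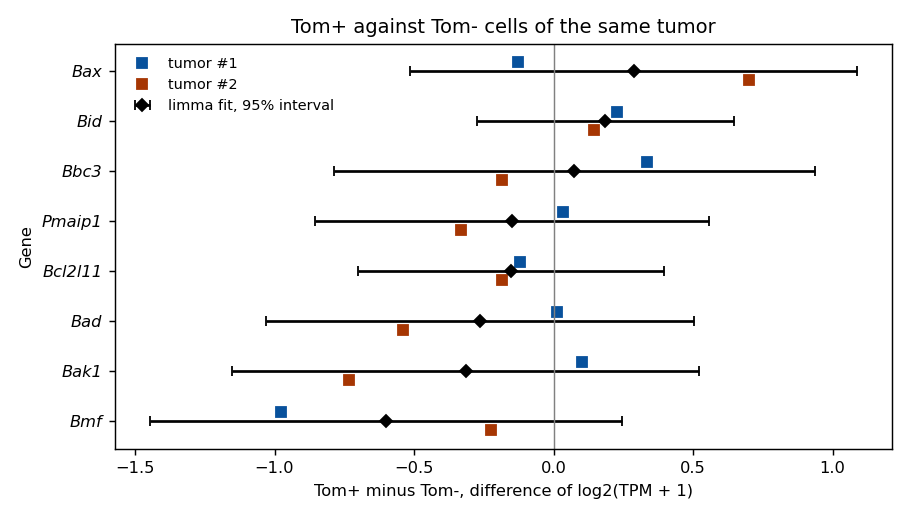
Difference between Tom+ and Tom- cells of the same tumor in log2(TPM + 1) on the horizontal axis for the 8 tested members, with the value in tumor #1 (blue), in tumor #2 (brown) and limma's fitted value with its 95% interval (black). All 8 intervals include 0, and the tumors lie on the same side of 0 for Bid, Bcl2l11 and Bmf.

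The median fitted difference of the 8 tested members was -0.15, from 0.023 in tumor #1 and -0.20 in tumor #2. Over all tested genes it was -0.033, from -0.0029 and -0.057. The median size of the difference, regardless of sign, was 0.22 in the members and 0.18 in all genes.

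Tumor #2 was next set against tumor #1. Each tumor is 1 mouse, so these differences have no replicate and are given without a test. As a description, both libraries of tumor #2 were above both of tumor #1 in 4 members (Bmf, Bcl2l11, Bid and Bbc3, where 44.8% of all genes were) and below in 2 (Bak1 and Pmaip1, where 23.7% were), 6 in all, against 68.5% of all genes. Bbc3 entered the 8 only through tumor #2, where it was high, so it is no support for this count, and without it 3 members lay above. The median of all tested genes was itself 0.23 higher in tumor #2 in Tom- cells and 0.19 higher in Tom+ cells on the log2 scale. With trimmed-mean scaling it was -0.093 and -0.11. Of the 4 higher members Bmf and Bcl2l11 stayed clear of tumor #1 with this scaling and with quantile normalization, Bid did not with either, and Bbc3 was not tested with the first and lower in tumor #2 with the second (-0.18). Members below tumor #1 were then Bak1, Pmaip1 and Bax with trimmed-mean scaling, and Bak1, Pmaip1, Bad and Bbc3 with quantile normalization. The shares of all genes above or below were not computed with these settings.

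Bmf alone differed by at least 1 on the log2 scale in both Tom- and Tom+ cells, which 14.9% of all tested genes did, 11.8% with tumor #2 higher and 3.1% with it lower. It was 3.52-fold higher in Tom- cells of tumor #2 than of tumor #1 (log2 difference 1.68) and 6.82-fold higher in Tom+ cells (2.43). The mean, 2.06, was at the 94.4th percentile of sizes among all genes and ranged from 1.74 to 2.27 over the settings tried. Bcl2l11 was 1.58-fold and 1.51-fold higher in tumor #2 (0.61 and 0.54). Its mean difference of 0.58 was 0.26 after trimmed-mean scaling and 0.26 after quantile normalization. Bid was 1.38-fold and 1.30-fold higher (0.45 and 0.37), and its mean of 0.41 was 0.075 and 0.20 with these settings.

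Neither effector gene was higher in both libraries of tumor #2. Bak1 was little lower in Tom- cells of tumor #2 (-0.18) and passed a log2 difference of 1 in Tom+ cells (-1.02). Bax was lower in Tom- cells (-0.74) and level in Tom+ cells (0.090). Pmaip1 was lower in both (-0.24 and -0.61) and Bad differed in direction (0.38 and -0.17). Bax, Pmaip1 and Bbc3 are known targets of p53. Trp53 was at 86.2 and 99.5 TPM for tumor #1 against 0.0870 and 0.145 TPM for tumor #2. The TPM ratio of tumor #2 to tumor #1 was 0.815 and 0.591 for Pmaip1 and 0.597 and 1.07 for Bax. For Bbc3, which passed the limit for testing only through tumor #2, it was 2.78 and 1.22. The part of Trp53 in these values was not tested.

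**Figure D3:**
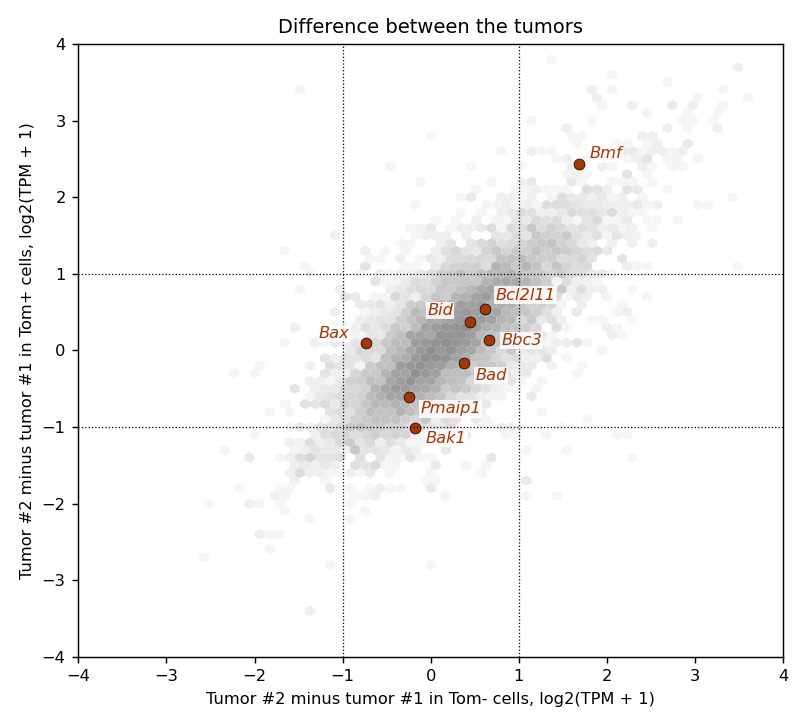
Difference between tumor #2 and tumor #1 in log2(TPM + 1) in Tom- cells (horizontal) and in Tom+ cells (vertical), with all 11339 tested genes as gray hexagons, darker where more genes lie (238 genes fall outside the axes), and the 8 tested members as labelled points. Dotted lines mark a difference of 1 in size. Bmf lies beyond both lines at 1.68 and 2.43, and the other 7 members do not.

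Transcripts listed as markers of other cells also differed between the tumors, though Cd3e stayed at 0.0687 TPM or less and Csf1r at 0.0695 TPM or less. The summed T and NK cell markers were at 0.398 and 0.398 TPM for tumor #1 against 8.29 and 4.06 TPM for tumor #2, most of it Cd3d. The myeloid ones were at 2.64 and 4.71 against 13.3 and 7.04 TPM, and the erythroid ones at 21.5 and 17.6 against 0.804 and 1.14 TPM. The B cell gene Cd79a was at 147 and 120 against 346 and 306 TPM, and the 8 B cell markers summed to 2354 and 2226 against 4769 and 5635 TPM. Whether the mix of cells had a part in these values or in the difference of Bmf was not tested.

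Among protein-coding genes the profiles nearest to that of Bmf over the 4 libraries, by Euclidean distance of mean-centered log2(TPM + 1), were those of Ankrd37 (0.17), Cstf2t (0.17) and Man2a2 (0.18). Ankrd37 was at 11.9 and 6.56 TPM for tumor #1 against 42.2 and 38.9 TPM for tumor #2. The nearest to Bak1 were Cdc34 (0.049), Naglu (0.074) and Zfp72 (0.077), and to Bax they were Atpaf2 (0.064), E2f6 (0.065) and Vps26b (0.084). With 4 libraries and 11339 genes, near profiles are found easily.

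The summed TPM of the BH3-only genes was 51.4 (Tom-) and 51.3 (Tom+) for tumor #1 against 85.5 and 79.3 for tumor #2. That of Bax, Bak1 and Bok was 213 and 203, and 140 and 187. The 8 anti-apoptotic genes listed, whose products hold these proteins in check, summed to 51.4 and 55.9 TPM for tumor #1 against 154 and 159 TPM for tumor #2, and Mcl1 made up 89.5% to 93.5% of it. Mcl1 was at 47.4 and 49.998 TPM for tumor #1 against 144 and 143 TPM for tumor #2, and Bcl2 at 0.519 and 0.368 against 5.55 and 6.95 TPM. The ratio of BH3-only to anti-apoptotic TPM was thus 0.999 and 0.919 in tumor #1 and 0.556 and 0.499 in tumor #2. The ratio of Bax, Bak1 and Bok to anti-apoptotic TPM was 4.14 and 3.63 against 0.914 and 1.17. Such ratios within a library do not depend on how libraries are scaled to each other. They compare transcripts and not proteins.

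**Figure D4:**
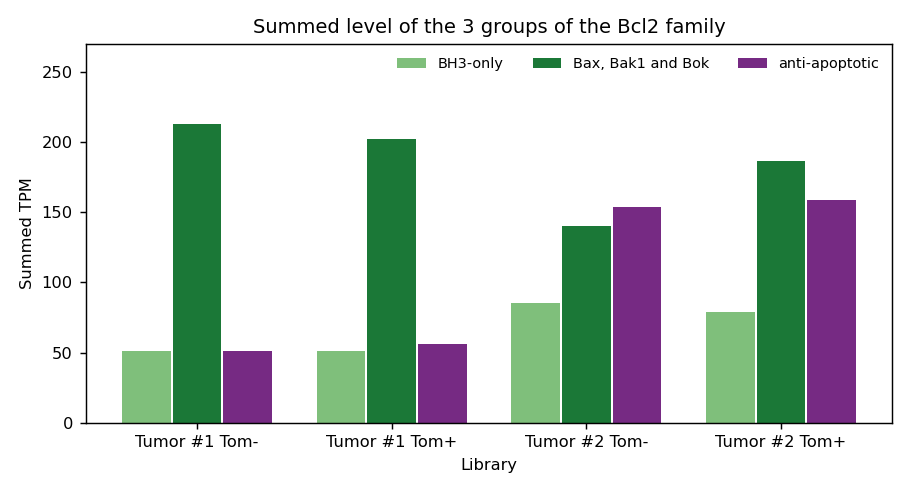
Summed TPM (vertical axis, from 0) of the BH3-only genes, of Bax, Bak1 and Bok, and of 8 anti-apoptotic Bcl2 family genes in each of the 4 libraries. The anti-apoptotic bar is the one that separates the tumors most, at 51.4 and 55.9 against 154 and 159 TPM.

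Companion lists of the same pathway were read from the same limma fit of Tom+ against Tom- libraries. They held 0 tested genes with an adjusted and 0 with an unadjusted p-value below 0.05. Over all tested genes the shares were 0% and 4.67%. Of all tested genes, 21.6% were higher and 29.5% lower in Tom+ libraries of both tumors, the shares to set beside the counts of each list. Of the other genes with Bcl2 homology or BH3-like function, 7 of 10 were tested, with 1 higher and 3 lower in Tom+ libraries of both tumors and a median of -0.20. The largest differences were those of Moap1, a binding partner of Bax (-0.47, SE 0.28), and Bcl2l13 (-0.36, SE 0.20). Of the anti-apoptotic genes, 5 of 8 were tested, with 1 higher and 0 lower in both tumors and a median of 0.064. There Bcl2l2 (0.75, SE 0.34) and Bcl2l1 (0.35, SE 0.50) differed most. Bcl2l2 was at 1.21 in tumor #1 and 0.30 in tumor #2, and Bcl2l1 had opposite signs, -0.46 and 1.16.

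All 13 genes of mitochondrial release and the apoptosome were tested, with 2 higher and 1 lower in both tumors and a median of -0.034. Apaf1, the scaffold of the apoptosome, was at 11.0 and 13.1 TPM for tumor #1 against 9.03 and 15.1 TPM for tumor #2 (0.45, SE 0.22). Endog, a mitochondrial nuclease, had -0.69 (SE 0.47), from 0.053 in tumor #1 and -1.44 in tumor #2. Among 17 genes whose products bind, cleave or phosphorylate BH3-only proteins, 4 were higher and 7 lower in both tumors (median -0.057). Of all genes 21.6% were higher and 29.5% lower in both. Rps6ka1, a kinase that can phosphorylate Bad, was at 18.8 and 14.9 TPM and at 40.6 and 20.7 TPM (-0.63, SE 0.23, unadjusted p = 0.068, adjusted p = 0.936 from limma). Pim1, another kinase of Bad, had 0.36 (SE 0.18).

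Of 10 transcription factors known to act on members 9 were tested, with 5 higher and 1 lower in both tumors (median 0.034), where 21.6% of all genes were higher and 29.5% lower. Ddit3, which encodes CHOP, a stress factor that can induce Bcl2l11, was at 5.33 and 7.44 TPM and at 10.9 and 15.8 TPM (0.46, SE 0.19). A second annotated gene of that name overlaps it on the same strand, so its TPM is uncertain. Tfap4, a MYC target, had -0.35 (SE 0.18).

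Promoters of 8 members, 14 windows in all, were read from RefSeq (GRCm38.p6), each from 250 bases before to 50 after a start. The E-box CACGTG, the site bound by MYC and MAX, was in 7.15% of all 32851 windows, the FOXO core GTAAACA in 3.65% and the p53 half-site in 8.36%, searched on both strands. The GC content of the 14 windows ran from 53.3% to 78%, against a median of 52.7% over all windows. These shares were not matched for it. Bax held 2 E-boxes and 1 p53 half-site, and Bbc3 held 1 E-box in 1 of its 3 windows and 1 FOXO core in another. Bcl2l11 held 1 FOXO core in 1 of 2 windows and Bmf 1 p53 half-site in 1 of 3. Bad, Bid, Bak1 and Bok held none of these in the windows read. The promoter of Bax (chr7:45466849-45467148, minus strand) is shown because it holds both motifs in the most abundant member, with the p53 half-site first and the 2 E-boxes after it in capitals. The second E-box lies past the start. A match is a description of letters and not evidence of binding.
Bax promoter: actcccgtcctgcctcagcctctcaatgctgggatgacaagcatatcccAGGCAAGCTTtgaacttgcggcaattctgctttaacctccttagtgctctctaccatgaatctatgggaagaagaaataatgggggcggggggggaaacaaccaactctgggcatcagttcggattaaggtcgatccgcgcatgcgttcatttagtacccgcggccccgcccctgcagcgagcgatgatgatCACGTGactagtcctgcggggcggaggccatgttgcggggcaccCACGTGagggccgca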

How the data were processed

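Single reads of 60 bases were trimmed with Cutadapt (reads under 30 bp discarded) and quantified by Salmon 1.9 (version from the submitters' processing notes, which also name CASAVA 1.8) against GRCm38 transcripts, Ensembl release 76 per the methods. The authors deposited TPM per gene, so depth is unknown. How transcripts were summed to genes is not given in the sources used here. Identifiers were named with GENCODE M21 (GRCm38), which holds 34582 of 34866.

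The scale was log2(TPM + 1), and genes entered that reached 1 TPM in 2 or more libraries. Tom+ was compared with Tom- by limma 3.58.1 (R 4.3.3) with a variance trend and the tumor as a block (residual degrees of freedom 1, prior 2.21), with Benjamini-Hochberg adjustment over all tested genes. The block follows the mice, and across genes the deviations of same-numbered libraries from their group means had a Pearson's r of 0.626. Tumors were compared without a test, with a log2 difference of 1 in both fractions as the limit. The methods' count test was not run, because it needs counts. The code was tested on simulated data. Python 3.11.15, pandas 2.3.3, numpy 2.4.6 and matplotlib 3.10.9 were used.

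The members and lists were chosen with earlier results of these data known. Named genes were all 10 members, in each companion list those with an unadjusted p-value below 0.05 and the 2 with the largest fitted difference, 4 reference genes (Trp53, Bcl2, Mcl1 and Bcl2l1), and the nearest profiles of the 3 members with the largest range. Genes overlapping members, the single markers named, and the genes of the closing section other than members were chosen after their values were seen. Some genes of these lists are not reported here. A search for the BH3 core in proteins was planned and was made in coding sequences instead, since no protein table was used here. Alternatives were the unblocked fit, other pseudocounts (0.1, 0.5), all genes above 0, a stricter mean TPM limit (5), quantile normalization, trimmed-mean scaling, immunoglobulin genes left out, pseudogenes and mitochondrial genes left out, no variance trend, and each tumor left out.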

Additional observations from a re-analysis of the deposited data

Results flagged for a closer look

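In 5 members the difference between Tom+ and Tom- cells had opposite signs in the tumors. With 1 pair of libraries per tumor this was not tested, and 47.3% of all tested genes did the same. On the log2(TPM + 1) scale, Bax was at -0.13 in tumor #1 and 0.70 in tumor #2, and Bak1 at 0.10 and -0.73. Bad was at 0.011 and -0.54 (lower in both tumors with trimmed-mean scaling), Pmaip1 at 0.036 and -0.33, and Bbc3 at 0.34 and -0.19. In 4 of these genes the larger difference was in tumor #2, and in Bbc3 it was in tumor #1, between values below 1 TPM.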

How the results depend on the processing

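No alternative gave a member or any gene an adjusted p-value below 0.05 from limma, and no alternative that kept both tumors turned the fitted Tom+ and Tom- difference of a member. With no replicate block, which ignores that the pairs come from the same mouse, 140 genes had an unadjusted p-value below 0.05, against 530 with it, and 0 members had one in either fit. Members lower in Tom+ cells of both tumors numbered 3 instead of 2 with trimmed-mean scaling, which added Bad. Leaving out 1 tumor gives values with no test. The median of the members was then between -0.20 (tumor #2 alone) and 0.023 (tumor #1 alone). The sign turned with tumor #1 alone for Bad (0.011, against -0.54 with tumor #2 alone), Pmaip1 (0.036 against -0.33), Bax (-0.13 against 0.70) and Bak1 (0.10 against -0.73), and with tumor #2 alone for Bbc3 (-0.19 against 0.34). Between the tumors, Bmf stayed the only member past a log2 difference of 1 in each setting. With a mean TPM of at least 5, which leaves 6 members, 1015 of 8153 tested genes passed that limit instead of 1695 of 11339. There 1 member instead of 2 lay below tumor #1, because Pmaip1, with a mean of 4.51 TPM, was not tested. Members with both libraries of tumor #2 above tumor #1 numbered 2 instead of 4 after trimmed-mean scaling, where Bbc3 was not tested. After quantile normalization 2 lay above, and 4 instead of 2 lay below. The shares of all genes so placed were not computed for the alternative settings. These counts of members therefore have no background to be set against. Depth limits the low genes most, but TPM do not show by how much.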

Other observations

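Companion genes past a log2 difference of 1 between the tumors in both Tom- and Tom+ cells included, besides Trp53, Bcl2 and Mcl1, the following 4, named after their values were seen. Birc3, an inhibitor of apoptosis induced by NF-kB, was at 25.4 (Tom-) and 22.8 (Tom+) TPM for tumor #1 against 149 and 156 TPM for tumor #2. E2f1, a cell cycle factor that can induce BH3-only genes, was at 13.5 and 13.7 against 5.16 and 4.70 TPM. Moap1 was at 7.50 and 6.69 against 3.17 and 1.42 TPM, and Mapk8, the stress kinase JNK1, at 9.80 and 10.7 against 24.2 and 27.0 TPM. Of all tested genes 14.9% passed this limit, and with 1 mouse per tumor none of these differences has a replicate.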
